A study of Homo sapiens with 18 samples.

Results

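The peaks described here lie on the far part of the long arm of chromosome 9, from 80 Mb to the chromosome's end, in CUT&Tag peak lists of A549 cells, an established human lung adenocarcinoma line. They were taken by position: every peak on chromosome 9 with a start at or beyond 80 Mb. The 6 anti-ARID1A lists held 1637 to 3450 such peaks among 71271 to 106882 on chromosomes 1 to 22 and X, and the 6 anti-YTHDF1 lists held 1147 to 2373 among 40562 to 59632. Peaks of the 6 lists of an antibody that overlapped by 1 bp or more were merged. This gave 4133 distal regions of 153386 with anti-ARID1A and 4166 of 145653 with anti-YTHDF1. Of these, 569 and 191 were held by all 6 lists of the antibody, out of 22598 and 6757 over all chromosomes used.

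YTHDF1-knockout cells (YTHDF1-KO), cells in which ARID1A was knocked down by siRNA (siARID1A) and wild-type cells (WT) were each profiled with both antibodies, 2 libraries per antibody and condition. All are A549 cultures, and the labels do not say whether the knockout is a single clone or a pool, or whether the libraries of a group came from separate cultures. Samples with normal IgG, 6 in number, were not analysed here. No sample is labelled as carrying both the knockout and the knockdown. As a check of the cells, CDKN2A and MTAP on the short arm were looked up in the lists. CDKN2A, which A549 cells are known to lack, had no peak at its ends or within it in any of the 12 lists. MTAP, which lies next to it, had a peak at its ends in 6 anti-ARID1A and 3 anti-YTHDF1 lists. Within MTAP a peak was found in 11 of the 12 lists, so the check does not settle the identity of the cells. The ends of YTHDF1 had a peak in all 12 lists, the knockout lists included. The ends of ARID1A had one in 6 anti-ARID1A and 3 anti-YTHDF1 lists.

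In CUT&Tag a transposase is tethered to a chromatin-bound antibody, where it cuts nearby DNA and adds sequencing adapters. Signal is thus meant to gather where the target protein sits. The signal at a region depends on the protein bound and on the number of DNA copies of the region in the cells, and peak lists cannot tell these apart. ARID1A is a DNA-binding subunit of the BAF form of the SWI/SNF remodelling complex, which moves nucleosomes at promoters and enhancers. YTHDF1 binds N6-methyladenosine in RNA and is known mainly as a cytoplasmic factor that promotes translation. On the chromosomes used, the anti-YTHDF1 lists of YTHDF1-KO cells held 50774 and 46225 peaks, against 57764 and 40562 in WT. Whether the anti-YTHDF1 peaks mark YTHDF1 itself was not tested. The distal part of chromosome 9 carries genes of many kinds, among them the receptor gene NOTCH1, the endoplasmic reticulum chaperone gene HSPA5 and the miR-126 gene in an intron of EGFL7.

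The promoters of 4 genes are shown because their regions carry values to which the account below returns: TLE1, a corepressor gene and the first protein-coding gene past the 80 Mb border, HSPA5, EDF1, a transcriptional coactivator gene under one of the strongest regions, and NPDC1, a neuronal gene held at its ends by WT but not YTHDF1-KO lists with anti-YTHDF1. The sequences are RefSeq's on GRCh38.p14, run from 250 bases before to 50 after the annotated start, and are all on the minus strand: chr9:81689498-81689797 for TLE1, chr9:125241294-125241593 for HSPA5, chr9:136866259-136866558 for EDF1 and chr9:137046128-137046427 for NPDC1. Capitals mark matches on either strand to 3 motifs, the CCAAT box (CCAAT), the Sp1 box (GGGCGG) and the AP-1 site (TGANTCA, whose match in HSPA5 overlaps a CCAAT box).
TLE1: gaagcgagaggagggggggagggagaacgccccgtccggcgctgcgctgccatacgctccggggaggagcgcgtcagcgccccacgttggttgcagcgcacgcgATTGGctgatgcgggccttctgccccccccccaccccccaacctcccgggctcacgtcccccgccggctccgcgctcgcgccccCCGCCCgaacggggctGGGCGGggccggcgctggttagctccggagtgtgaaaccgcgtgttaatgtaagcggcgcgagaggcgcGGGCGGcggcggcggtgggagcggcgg
HSPA5: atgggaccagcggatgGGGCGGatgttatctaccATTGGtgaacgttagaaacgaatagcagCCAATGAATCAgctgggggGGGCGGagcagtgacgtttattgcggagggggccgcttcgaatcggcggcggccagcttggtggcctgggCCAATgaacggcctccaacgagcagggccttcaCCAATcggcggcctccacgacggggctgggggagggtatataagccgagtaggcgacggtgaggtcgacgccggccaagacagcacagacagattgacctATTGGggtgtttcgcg
EDF1: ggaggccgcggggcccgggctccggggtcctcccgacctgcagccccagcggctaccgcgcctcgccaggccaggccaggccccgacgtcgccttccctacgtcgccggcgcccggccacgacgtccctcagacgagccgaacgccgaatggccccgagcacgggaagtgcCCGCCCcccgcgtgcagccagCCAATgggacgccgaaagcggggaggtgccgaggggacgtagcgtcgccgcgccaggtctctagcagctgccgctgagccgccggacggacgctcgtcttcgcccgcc
NPDC1: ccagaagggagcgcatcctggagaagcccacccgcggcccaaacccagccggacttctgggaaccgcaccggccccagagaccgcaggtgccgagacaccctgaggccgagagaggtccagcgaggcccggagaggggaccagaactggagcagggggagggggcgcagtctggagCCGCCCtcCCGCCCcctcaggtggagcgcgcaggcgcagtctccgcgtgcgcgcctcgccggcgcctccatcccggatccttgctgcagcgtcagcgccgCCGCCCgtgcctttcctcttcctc
HSPA5 held 5 CCAAT boxes, the element its promoter is known for, 2 Sp1 boxes and 1 AP-1 site, whereas NPDC1 held 3 Sp1 boxes and no match to the other motifs. Of 640 distal promoters, 30.3% held a CCAAT box, 63.3% an Sp1 box and 4.53% an AP-1 site, against 34.6%, 56.3% and 6.15% of 22132 promoters on all chromosomes used. The median GC content was 65.7% over distal promoters, 61.0% over those of chromosome 9 below 60 Mb and 62.3% over all. These matches describe the letters only.

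Of 55 distal miRNA hairpins in the RefSeq table, MIR126 and MIR4673 had a peak within 1 kb in all 12 lists and 14 had none in any. Hairpins elsewhere were not counted, so these numbers cannot be set against a share over all chromosomes. The mature forms of miR-126, an endothelial miRNA, are shown because its gene lies in one of the strongest anti-ARID1A regions, and that of miR-199b because its gene lies in a region of DNM1 with one of the largest anti-YTHDF1 differences. Capitals mark the seed, bases 2 to 8.
hsa-miR-126-3p: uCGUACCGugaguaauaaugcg
hsa-miR-126-5p: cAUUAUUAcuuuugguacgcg
hsa-miR-199b-3p: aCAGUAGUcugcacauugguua
The 3 seeds differ from one another. MIR199B had a peak within 1 kb in 6 anti-ARID1A and 5 anti-YTHDF1 lists. The let-7 genes MIRLET7A1, MIRLET7F1 and MIRLET7D, as well as MIR23B, MIR27B and MIR181A2, had none in any list.

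The distal regions carried more signal than the other autosomes in WT cells and about as much or less in both other conditions. The unit is the total signal of a list's peaks in a region, as log2, with the library's median over the autosomes other than 9 taken off. With anti-ARID1A the median over the 569 regions held by all 6 lists was -0.06 and -0.06 in YTHDF1-KO and -0.23 and -0.24 in siARID1A, against 0.59 and 0.55 in WT libraries. With anti-YTHDF1 the median over 191 regions was -0.33 and -0.10 in YTHDF1-KO and -0.20 and -0.29 in siARID1A, against 0.57 and 0.56 in WT. With both antibodies the WT libraries were the ones that stood apart, and no library of either other condition came near them.

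The difference from WT was -0.63 ± 0.03 for YTHDF1-KO and -0.81 ± 0.03 for siARID1A with anti-ARID1A (SD, n = 2 each), that is, 0.645 and 0.572 times the WT level relative to the other autosomes. With anti-YTHDF1 it was -0.78 ± 0.16 and -0.81 ± 0.06, or 0.583 and 0.571 times. Chromosome 9 below 60 Mb differed the other way or within the spread: 0.13 ± 0.05 and 0.17 ± 0.06 over 260 regions with anti-ARID1A, and 0.22 ± 0.17 and -0.16 ± 0.31 over 56 regions with anti-YTHDF1, for YTHDF1-KO and siARID1A against WT. The median of the single-region differences there was 0.05 and 0.14 with anti-ARID1A (44.6% and 43.1% below 0). With anti-YTHDF1 it was -0.06 and -0.11 (55.4% and 57.1% below 0), so the sign for YTHDF1-KO depends on the measure. The distal part was chosen from these contrasts, so the differences are descriptions and carry no test, and both conditions are set against the same WT libraries.

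The size depends on what is measured. From the highest signal of a region in place of the total, the differences with anti-ARID1A were -0.39 for YTHDF1-KO and -0.46 for siARID1A, and those with anti-YTHDF1 were -0.53 and -0.55. Over each list's own distal peaks, with no matching of regions, all 4 differences lay between -0.09 and -0.08, each list then holding only the peaks called in it. Over regions held by at least 1 library of each condition the anti-YTHDF1 differences were -0.43 for YTHDF1-KO and -0.49 for siARID1A.

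**Figure D1:**
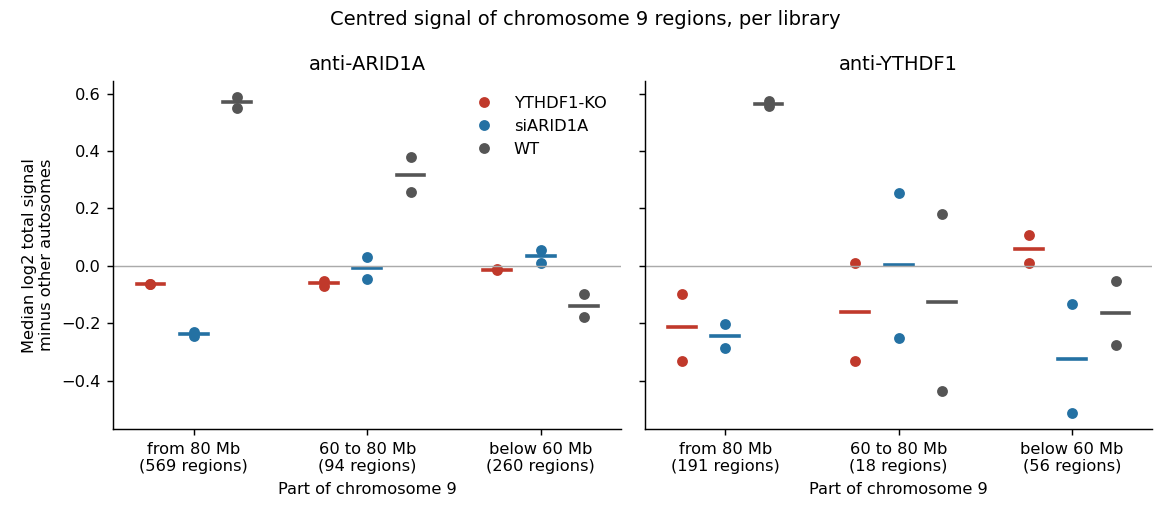
Median log2 total signal of chromosome 9 regions minus that of the autosomes other than 9 (vertical axis), for 3 parts of the chromosome and both antibodies. Each point is a library and each bar the mean of a condition's 2 libraries; from 80 Mb the WT points lie between 0.55 and 0.59 with both antibodies, above all others.

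Single regions followed the median. With anti-ARID1A the median over regions was -0.61 for YTHDF1-KO minus WT (quartiles -0.88 and -0.36) with 540 of 569 below 0 (94.9%), and -0.66 for siARID1A minus WT (quartiles -1.17 and -0.26) with 492 below 0 (86.5%). With anti-YTHDF1 it was -0.78 (quartiles -1.23 and -0.35) with 165 of 191 below 0 (86.4%), and -0.71 (quartiles -1.08 and -0.39) with 176 below 0 (92.1%). The siARID1A differences spread more widely than the YTHDF1-KO ones with anti-ARID1A.

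Both YTHDF1-KO libraries lay below both WT libraries in 431 of 569 distal anti-ARID1A regions (75.7%), where 24.6% of all regions tested did, and above both in 11, where 25.2% of all did. Both siARID1A libraries lay below both WT libraries in 373 (65.6%, against 24.6% of all regions) and above in 25 (31.5% of all). With anti-YTHDF1 the YTHDF1-KO libraries lay below in 108 of 191 (56.5%, against 19.7%) and above in 3 (19.2% of all), and the siARID1A libraries below in 119 (62.3%, against 19.6%) and above in 2 (18.3% of all). Nothing is read from these shares, because the rule used the same contrast.

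**Figure D2:**
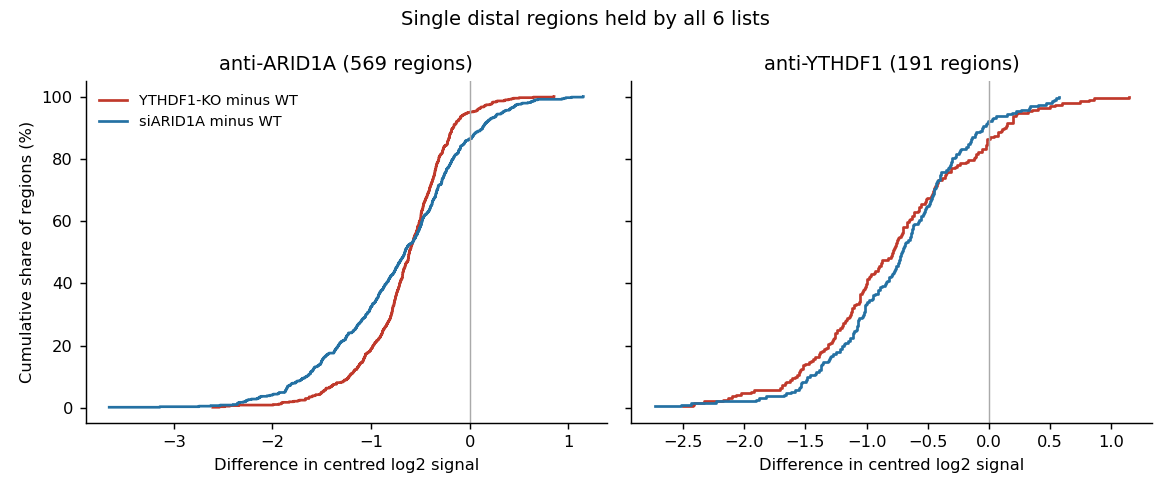
Cumulative share of the distal regions held by all 6 lists of an antibody (vertical axis, %) by their difference from WT in centred log2 total signal (horizontal axis). The curves cross 0 at 94.9% and 86.5% for YTHDF1-KO and siARID1A with anti-ARID1A and at 86.4% and 92.1% with anti-YTHDF1.

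With anti-ARID1A the difference ran along the whole distal part, and regions short of 80 Mb carried it too. All 12 bins of 5 Mb from 80 Mb were negative in both comparisons with this antibody. In the 10 of them with 20 or more regions the YTHDF1-KO difference lay between -0.70 and -0.45, and the siARID1A difference between -1.03 and -0.21. The siARID1A values were smallest in the bins from 80 and 85 Mb (-0.26 and -0.21) and largest in the bin from 130 Mb (-1.03), whereas the YTHDF1-KO values in those bins were -0.58, -0.45 and -0.63. In comparison, the medians of the other autosomes apart from 2 and 17 ran from -0.05 to 0.09 for YTHDF1-KO and from -0.08 to 0.35 for siARID1A with anti-ARID1A. Chromosome 2 was also low in YTHDF1-KO, at -0.56 with anti-ARID1A and -0.43 with anti-YTHDF1, but not in siARID1A, at 0.07 and -0.07. Chromosome 17 stood at 0.33 for YTHDF1-KO and 0.32 for siARID1A with anti-ARID1A and at 0.27 and 0.26 with anti-YTHDF1. Its siARID1A value with anti-ARID1A lies within the range of the other autosomes.

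The bin from 65 Mb, with 22 regions, stood at 0.09 and 0.33 for YTHDF1-KO and siARID1A, and the bin from 70 Mb, with 42 regions, at -0.55 and -0.49. In windows of 1 Mb the 3 regions from 68 Mb had medians of 0.41 and 0.45, the 2 from 69 Mb had -0.72 and 0.09, and the 3 from 70 Mb had -0.43 and -0.43. Between 71 and 80 Mb the YTHDF1-KO medians stayed negative in every window but the last, which holds TLE4 alone, whereas the siARID1A medians returned to -0.08, 0.04 and 0.08 in the windows from 74, 75 and 78 Mb, with 2 to 3 regions each. With anti-YTHDF1 only 3 distal bins held 20 or more regions, those from 125, 130 and 135 Mb. They lay between -0.997 and -0.46 for YTHDF1-KO and between -0.73 and -0.70 for siARID1A. Over all 10 distal anti-YTHDF1 bins, thin ones included, 8 were negative for YTHDF1-KO and 10 for siARID1A. The exceptions were the bins from 105 Mb, with 3 regions at 0.50, and from 110 Mb, with 2 regions at 0.01, and 89.5% of the 191 regions lay from 120 Mb on.

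**Figure D3:**
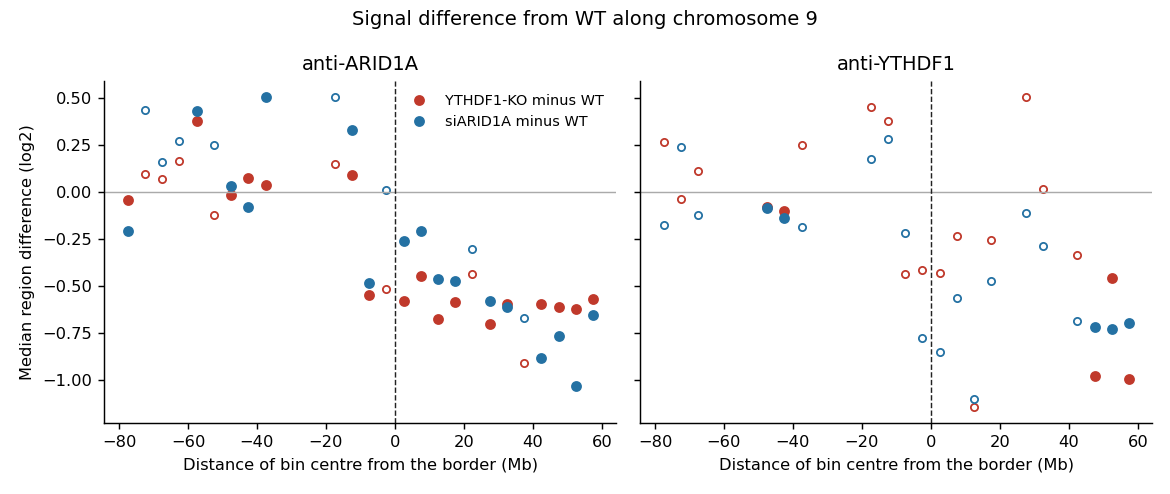
Median difference from WT in centred log2 total signal (vertical axis) per bin of 5 Mb, by the distance of the bin's centre from the 80 Mb border (horizontal axis, Mb; positive towards the chromosome's end). Filled points are bins with 20 or more regions and open points are thinner bins; with anti-ARID1A every distal bin lies below 0 in both comparisons.

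Regions on either side of the border show how little the border itself marks. Just inside it the anti-ARID1A regions chr9:81388296-81392232, chr9:81533753-81537498 and chr9:81558032-81564849 overlap no protein-coding gene, with YTHDF1-KO differences of 0.27, -0.22 and -0.16 and siARID1A differences of -0.60, -0.66 and -1.65. Just outside it the region of TLE4, a corepressor gene, stood higher than WT (0.56 for YTHDF1-KO and 0.61 for siARID1A). Next to it an intergenic region, one that overlaps no protein-coding gene, from 78865181 was lower (-1.21 and -0.90), and that of PSAT1, a serine synthesis enzyme gene, differed at -0.57 and 0.08. The TLE1 promoter shown above lies in the region chr9:81685539-81691803, whose centred anti-ARID1A signal was 0.65 and 0.81 in YTHDF1-KO and 0.78 and 1.32 in siARID1A, against 1.41 and 1.21 in WT. Both YTHDF1-KO libraries were below both WT libraries there, and siARID1A overlapped WT.

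Regions over promoters and regions away from them both carried the difference. Promoters were overlapped by 39.7% of the 569 distal anti-ARID1A regions and 34.6% of the 21215 on the other autosomes. The YTHDF1-KO difference was -0.64 over promoters and -0.71 elsewhere, beside 0.04 and -0.01 for the same classes on the other autosomes. The siARID1A difference was -0.59 over promoters and -0.998 elsewhere, but the other autosomes also split, at 0.27 and -0.14. Distal minus other autosomes, both classes came to -0.86 for siARID1A and to -0.67 and -0.71 for YTHDF1-KO. With anti-YTHDF1 these contrasts were -0.60 over promoters and -0.91 elsewhere for YTHDF1-KO, and -0.69 and -0.94 for siARID1A. Regions of higher and lower rank, and longer and shorter regions, ranged from -0.87 to -0.56 with anti-ARID1A and from -0.92 to -0.62 with anti-YTHDF1 on the same scale.

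Among regions held by all 6 lists, nearly all anti-YTHDF1 regions overlapped anti-ARID1A regions, but not the reverse. Of the 191 distal anti-YTHDF1 regions held by all 6 lists, 182 (95.3%) overlapped a distal anti-ARID1A region held by all 6 lists, and 134 of the 569 (23.6%) did so in the other direction. On the other autosomes the shares were 95.4% and 21.2%. Over all merged distal regions, 3109 of 4166 anti-YTHDF1 regions (74.6%) overlapped an anti-ARID1A region. In the other direction 1973 of 4133 did (47.7%). The shares on the other autosomes were then 68.5% and 43.0%.

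The lists also held fewer distal peaks in both conditions than in WT, relative to the near part of the chromosome. With anti-ARID1A there were 2546 and 2687 distal peaks in YTHDF1-KO and 1637 and 1896 in siARID1A lists, against 3131 and 3450 in WT lists. Per peak below 60 Mb this came to 2.18 and 2.12 in YTHDF1-KO and 2.25 and 2.24 in siARID1A, against 3.17 and 3.24 in WT. With anti-YTHDF1 there were 1245 and 1147 distal peaks in YTHDF1-KO and 1503 and 1480 in siARID1A, against 2373 and 1624 in WT. Per peak below 60 Mb the values were 2.31 and 2.58 in YTHDF1-KO and 2.44 and 2.82 in siARID1A, against 4.67 and 4.43 in WT. Neither condition overlapped WT in this ratio with either antibody, although peak numbers of single lists vary with the length of the list.

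The distal share of a list's total signal was 2.23% and 2.19% in YTHDF1-KO and 1.97% and 2.00% in siARID1A, against 3.66% and 3.75% in WT with anti-ARID1A. With anti-YTHDF1 it was 2.16% and 2.16% in YTHDF1-KO and 2.26% and 2.299% in siARID1A, against 4.41% and 3.93% in WT. The peaks of YTHDF1-KO lists covered 5.84 ± 0.19 Mb and those of siARID1A lists 2.58 ± 0.50 Mb, against 9.20 ± 1.13 Mb in WT with anti-ARID1A, and 1.41 ± 0.05, 1.97 ± 0.10 and 3.07 ± 1.37 Mb in the same conditions with anti-YTHDF1 (SD, n = 2 each).

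**Figure D4:**
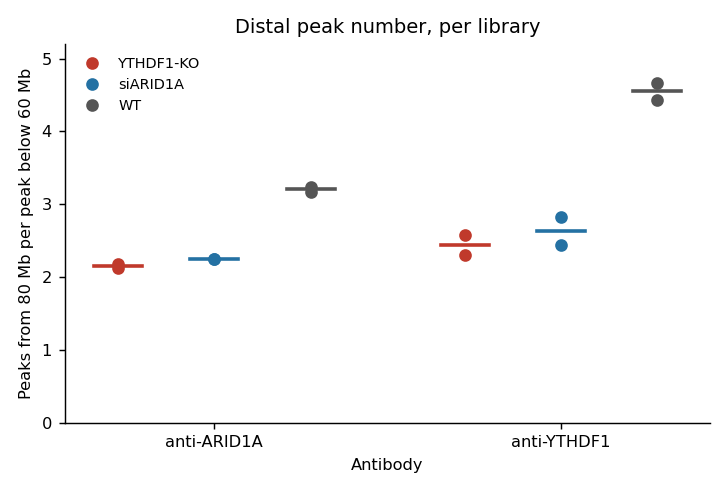
Number of distal peaks per peak on chromosome 9 below 60 Mb (vertical axis), by antibody and condition. Each point is a library and each bar the mean of 2; YTHDF1-KO and siARID1A libraries lie between 2.12 and 2.82, below the WT libraries, which lie between 3.17 and 4.67.

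Whole regions were likewise missing more often than gained, which is given as a description like the shares above. With anti-ARID1A 32 of 4133 distal regions were held by both YTHDF1-KO lists and neither WT list (0.774%, with 3.01% over all chromosomes), and 338 by both WT lists and neither YTHDF1-KO list (8.18%, with 3.39% over all). For siARID1A 3 were held by both its lists and neither WT list (0.0726%, with 0.524% over all) and 796 the reverse (19.3%, with 9.26%). The siARID1A lists were the shortest with this antibody. With anti-YTHDF1 29 of 4166 were held by both YTHDF1-KO lists and neither WT list (0.696%, with 1.45% over all) and 264 the reverse (6.34%, with 2.24%). For siARID1A 50 were held by both its lists and neither WT list (1.20%, with 2.53%) and 177 the reverse (4.25%, with 1.45%). The lists of the third condition were not counted in these patterns.

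The strongest distal anti-ARID1A regions were broad and lay towards the chromosome's end. By mean percentile of total signal within the lists, chr9:129473802-129512557 over LOC124900275 came first at 99.8. Its signal was 3.83 and 3.83 in YTHDF1-KO and 4.03 and 4.09 in siARID1A, against 4.59 and 4.49 in WT. The region chr9:136648742-136702980, over the starts of AGPAT2, a phosphatidic acid synthesis gene, and EGFL7, the endothelial gene that hosts miR-126, had 4.26 and 4.16 in YTHDF1-KO and 4.49 and 4.31 in siARID1A, against 4.78 and 4.86 in WT. In both regions the WT libraries were the highest, and the groups did not overlap. The region of PTGDS, a prostaglandin D synthase gene, stood at 4.496 and 4.51 in YTHDF1-KO and 4.93 and 4.69 in siARID1A, against 5.03 and 5.06 in WT.

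A further pair of regions completed the highest 5. That from 127893486 to 127985640, over DPM2 and the sialyltransferase genes ST6GALNAC4 and ST6GALNAC6, differed by -0.47 for YTHDF1-KO and -0.40 for siARID1A. The EDF1 region, chr9:136846573-136866733, which contains the promoter shown above, had 3.04 and 2.85 in YTHDF1-KO and 3.59 and 3.19 in siARID1A, against 3.43 and 3.45 in WT. There YTHDF1-KO was below WT and siARID1A overlapped it.

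The largest single differences went well beyond the median. In chr9:135125626-135141121, which overlaps no protein-coding gene, anti-ARID1A signal was -0.99 and -0.64 in YTHDF1-KO and -1.71 and -2.02 in siARID1A, against 1.79 and 1.79 in WT, so that the differences were -2.61 and -3.66. Regions in FAM120A (-2.54), ROR2, a WNT receptor gene (-2.49), CORO2A (-2.43) and ASTN2 (-2.34) followed for YTHDF1-KO. For siARID1A the next were 3 intergenic regions (-3.14, -2.75 and -2.63) and one in LMX1B, a homeobox gene (-2.53). The intergenic region with -2.75, chr9:128045641-128058868, had 1.00 and 1.13 in YTHDF1-KO, -1.85 and -2.07 in siARID1A and 0.68 and 0.89 in WT. It was low in siARID1A while YTHDF1-KO stood above WT.

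The highest anti-ARID1A differences were 0.86 for YTHDF1-KO in AOPEP, 0.64 at ORM1, an acute phase protein gene, and 0.50 in an intergenic region. For siARID1A they were 1.15 in AOPEP, 1.03 at ZNF484 and 0.98 in LPAR1, the gene of a lysophosphatidic acid receptor. With a single library left out they came as low as 0.16, 0.40 and 0.07 for YTHDF1-KO and 0.51, 0.79 and 0.33 for siARID1A.

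With anti-YTHDF1 the strongest region, chr9:137844290-137849080, was not lower in YTHDF1-KO: its signal was 4.26 and 4.11 in YTHDF1-KO and 3.42 and 2.80 in siARID1A, against 3.66 and 4.00 in WT. The YTHDF1-KO difference was 0.35 and the siARID1A difference -0.73, close to the median of all distal regions. It overlaps no protein-coding gene and lies close to the chromosome's end, as does chr9:138230363-138233803, with differences of -0.02 and -0.33. The other 3 of the highest 5 lay over PTGDS (-0.87 for YTHDF1-KO and -0.62 for siARID1A), NSMF (-1.16 and -1.08) and ABCA2 (-0.36 and -0.45).

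The lowest anti-YTHDF1 differences for YTHDF1-KO were -2.51 and -2.42 in 2 intergenic regions, -2.42 in NACC2, -2.33 at NDOR1 and RNF208 (-0.75 without YTHDF1-KO replicate 1) and -2.17 at PTGES2, a prostaglandin E synthase gene. For siARID1A they were -2.74 in an intergenic region, -2.52 in DNM1, -2.44 at WDR38, -2.23 in KCNT1 (-1.30 without siARID1A replicate 2) and -1.91 in CACNA1B, a neuronal calcium channel gene (-1.16 to -2.65 with 1 library left out). The DNM1 region, which contains the miR-199b gene, had -0.44 and -0.10 in YTHDF1-KO and -0.95 and -0.73 in siARID1A, against 1.54 and 1.81 in WT. The highest were 1.15 at NR5A1 and ADGRD2 for YTHDF1-KO, where the WT libraries were far apart at 1.07 and -1.40, and 0.58 at CACFD1 for siARID1A. Without WT replicate 2 the NR5A1 difference was -0.09, and without WT replicate 1 that at CACFD1 was -0.11.

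Named genes were grouped into 8 lists. A gene's region is the one of highest rank, among those held by all 6 lists of the antibody, that overlaps a 1 kb window at either annotated end, and over all 320 distal genes with such an anti-ARID1A region the median difference was -0.54 for YTHDF1-KO and -0.40 for siARID1A. Over 139 genes with anti-YTHDF1 it was -1.003 and -0.68. Neighbouring genes can share a region, as CDK9 and ENG do, and RMI1 and HNRNPK.

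Of the 9 genes of genome maintenance and R-loop biology, 7 had an anti-ARID1A value, with medians of -0.51 for YTHDF1-KO and -0.47 for siARID1A. RAD23B, a nucleotide excision repair gene, had 0.91 and 1.19 in YTHDF1-KO and 0.89 and 0.84 in siARID1A, against 1.62 and 1.505 in WT, and both conditions lay below. FANCC, a Fanconi anaemia gene, differed for siARID1A (-0.71 ± 0.22) but overlapped WT for YTHDF1-KO (-0.06 ± 0.22).

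Of 12 immunity genes 5 had an anti-ARID1A value, all of them negative in both comparisons (medians -0.54 and -0.28). Most distal anti-ARID1A regions were negative too, 94.9% for YTHDF1-KO and 86.5% for siARID1A. CARD9, an adaptor of innate antifungal signalling, had 3.91 and 3.92 in YTHDF1-KO and 3.92 and 3.95 in siARID1A, against 4.43 and 4.496 in WT. With anti-YTHDF1 its signal was 3.30 and 3.33 in YTHDF1-KO and 3.29 and 3.497 in siARID1A, against 4.36 and 4.47 in WT. Neither condition overlapped WT at CARD9 with either antibody. These values are not of CARD9 alone: the anti-YTHDF1 region, chr9:136323963-136383823, also overlaps DNLZ, GPSM1 and SNAPC4. The anti-ARID1A region, chr9:136321309-136383817, spans nearly the same stretch. LCN2, an iron-binding acute phase gene, differed by -0.39 ± 0.12 and -0.28 ± 0.01 with anti-ARID1A and overlapped WT in both comparisons with anti-YTHDF1.

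Of 16 transcription factor genes 11 had an anti-ARID1A value, with medians of -0.42 for YTHDF1-KO and -0.75 for siARID1A. RXRA, a nuclear receptor gene, had 3.33 and 3.26 in YTHDF1-KO and 3.48 and 3.13 in siARID1A, against 4.07 and 4.03 in WT. NR6A1, a germ cell nuclear receptor gene, differed by -0.42 ± 0.27 and -1.0005 ± 0.26 with anti-ARID1A, and by 0.11 ± 0.36 and -0.14 ± 0.16, overlapping WT, with anti-YTHDF1.

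All 9 signalling genes of 16 with an anti-ARID1A value were negative in both comparisons (medians -0.62 and -0.62). Of all distal anti-ARID1A regions held by the 6 lists, 94.9% and 86.5% were below 0. CDK9 and ENG among the 9 share a region. NOTCH1 had 3.56 and 3.58 in YTHDF1-KO and 4.01 and 3.84 in siARID1A, against 4.25 and 4.28 in WT. With anti-YTHDF1 its signal was -0.0041 and 0.04 in YTHDF1-KO and 0.69 and 0.57 in siARID1A, against 1.55 and 1.26 in WT. Both conditions were below WT at NOTCH1 with both antibodies.

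All 11 chromatin and RNA genes had an anti-ARID1A value, with medians of -0.58 for YTHDF1-KO and -0.33 for siARID1A. EHMT1, a histone H3K9 methyltransferase gene, had 2.36 and 2.58 in YTHDF1-KO and 2.46 and 2.33 in siARID1A, against 3.05 and 3.05 in WT. PTBP3, a splicing regulator gene, differed by -0.72 ± 0.47 for YTHDF1-KO and overlapped WT for siARID1A at 0.04 ± 0.66.

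Of the 14 genes of translation, protein folding and redox 9 had an anti-ARID1A value, and their median was -0.50 for YTHDF1-KO and 0.05 for siARID1A. HSPA5 had 1.43 and 1.41 in YTHDF1-KO and 2.02 and 1.95 in siARID1A, against 1.86 and 1.95 in WT. Its YTHDF1-KO libraries were well below WT and its siARID1A libraries barely above. With anti-YTHDF1 the HSPA5 region had -0.46 and -1.29 in YTHDF1-KO and -0.59 and -1.17 in siARID1A, against 0.57 and -0.20 in WT. PTGES2 stood above WT for siARID1A with anti-ARID1A as well (0.25 ± 0.14), and below it for YTHDF1-KO (-0.37 ± 0.12). Whether the 2 conditions differ over this list was not tested.

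Of 14 matrix and metabolism genes 8 had an anti-ARID1A value, with medians of -0.61 and -0.93. PTGR1, a prostaglandin reductase gene, had the largest YTHDF1-KO difference of the listed genes with a printed anti-ARID1A value, -1.94: -0.64 and -0.01 in YTHDF1-KO and 1.20 and 0.30 in siARID1A, against 1.66 and 1.56 in WT. ASS1, the argininosuccinate synthase gene, had 1.07 and 1.20 in YTHDF1-KO and -0.38 and 0.79 in siARID1A, against 1.89 and 1.74 in WT. The region of LAMC3, a laminin chain gene, differed by -0.88 ± 0.38 for YTHDF1-KO and -1.88 ± 0.44 for siARID1A. This region, chr9:131087295-131115433, does not overlap the LAMC3 promoter. The anti-YTHDF1 region inside it, chr9:131095424-131104500, overlaps AIF1L and not LAMC3. NPDC1 had 2.65 and 2.44 in YTHDF1-KO and 2.60 and 2.68 in siARID1A, against 2.97 and 2.98 in WT, with anti-ARID1A. With anti-YTHDF1 NPDC1 had 0.73 and 0.28 in YTHDF1-KO and 2.18 and 1.97 in siARID1A, against 2.73 and 2.48 in WT, in a merged region that reaches the gene although the YTHDF1-KO peaks in it did not lie at its ends. NPDC1 and LAMC3 come from earlier results of these data and do not stand as independent cases.

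**Figure D5:**
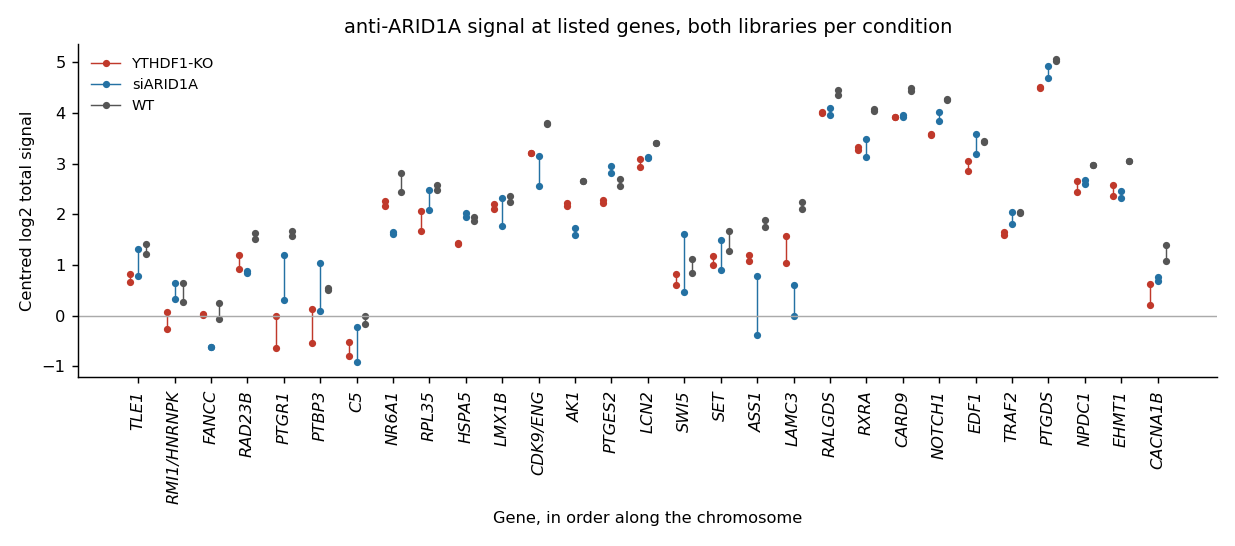
Centred log2 total signal with anti-ARID1A (vertical axis) at the regions of the highest-ranked genes of each list (at most 4 per list), in order along the chromosome (horizontal axis). Each point is a library and each line joins the 2 libraries of a condition; YTHDF1-KO lies below WT at all genes plotted but FANCC, where they overlap, and siARID1A lies above WT at HSPA5 and PTGES2.

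At gene ends the lists of 505 distal protein-coding genes gave 111 held by all 12 lists (21.98%, beside 19.4% of the genes below 60 Mb and 18.6% of 19974 in all) and 51 held by none. With anti-ARID1A 1 gene, SPATA31C1, was held by both YTHDF1-KO lists and neither WT list (0.981% over all genes), and 13 were held the other way round (2.57%, with 1.03% over all). For siARID1A 2 genes, SURF1 and SURF2, which share a promoter, were held by both its lists and neither WT list (0.345% over all). The reverse held for 47 (9.31%, with 3.78%). With anti-YTHDF1 3 genes, SEMA4D, STOM and OBP2A, were held by both YTHDF1-KO lists and neither WT list (1.42% over all). The reverse held for 58 (11.5%, with 3.5%). For siARID1A 4 genes, ACTL7A, SVEP1, ORM1 and OBP2A, were held by both its lists and neither WT list (3.1% over all). The reverse held for 24 (4.75%, with 1.25%). The lists of the third condition were not counted in these patterns, so OBP2A is named in both comparisons.

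FOXE1, a thyroid transcription factor gene, was held by both WT lists of each antibody and by none of the other 8. Its anti-ARID1A signal in WT was low, at -2.19 and -1.35. KLF4 was held by WT alone with anti-YTHDF1 in both comparisons, at -2.14 and -1.02, whereas anti-ARID1A signal was found in all 6 lists, with 0.23 and 0.34 in YTHDF1-KO and 1.14 and 0.45 in siARID1A, against 0.91 and 1.05 in WT. BRD3, a bromodomain gene, showed the same presence with anti-YTHDF1, at -2.22 and -1.27 in WT. The WT-only peaks of these 3 genes lay below the median that each library was centred on. No signal is listed where no peak was called, so a lower level elsewhere was not measured.

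The 2 antibodies were compared over all 12 libraries. The choice of the distal part used the same libraries but not the contrast between antibodies. The number of distal peaks per peak below 60 Mb was lower with anti-ARID1A, at a log2 ratio of 1.32 ± 0.28, than with anti-YTHDF1, at 1.62 ± 0.45 (SD, n = 6 each). The difference was -0.30, with p = 0.00926 in an exact two-sided permutation test within conditions, the smallest that this design can give, and 0.0278 after Benjamini-Hochberg adjustment over 3 measures. The ratio was lower in 3 of 3 conditions, by -0.18 in YTHDF1-KO, -0.22 in siARID1A and -0.51 in WT. It rests on the peaks below 60 Mb as well as on the distal ones. As a mean share of a list's peaks, distal peaks were not fewer with anti-ARID1A in YTHDF1-KO, at 2.53% against 2.47% with anti-YTHDF1. They were fewer in siARID1A (2.35% against 2.55%) and in WT (3.41% against 4.06%). The call does not hold without either YTHDF1-KO or either siARID1A anti-ARID1A library. The adjusted p of the permutation test was then 0.0556, while the difference stayed between -0.31 and -0.30. With the replicate number as a block the call does not hold either, although these numbers did not pair the libraries. The anti-ARID1A lists are also the longer ones, and the part of list length was not tested.

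Peak length and peak signal did not pass the test. The log2 ratio of median distal peak length to that on the other autosomes was 0.01 ± 0.04 with anti-ARID1A and 0.02 ± 0.04 with anti-YTHDF1 (SD, n = 6 each), with an adjusted p of 0.111 in the same permutation test. Without replicate 2 of the YTHDF1-KO anti-YTHDF1 libraries the length difference was -0.0075 and its adjusted p in this permutation test 0.0278. The median log2 signal of a list's own distal peaks, centred, was 0.03 ± 0.05 and 0.03 ± 0.04, with an adjusted p of 0.648.

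No distal gene passed the test per gene. Fisher's exact test of 6 against 6 lists was run on 13408 genes held at their ends by 1 to 11 lists, 343 of them distal. It called 0 genes in either direction (0% over all genes) at an adjusted p of 0.05. The smallest p that this Fisher's exact test can give, for 6 against 0 lists, is 0.00216, which came to 0.0701 after adjustment. Even a full split of the lists thus did not pass, and nothing about single genes is read from the 0. At an unadjusted p under 0.05 there were 35 distal genes held more often with anti-ARID1A and 0 with anti-YTHDF1, with adjusted p from 0.0701 to 0.127. The 35 are 10.2% of the distal genes tested by Fisher's exact test, beside 11.96% of all genes tested. The 6 distal genes held by all anti-ARID1A and no anti-YTHDF1 list were RASEF, the death-associated kinase gene DAPK1, CDK20, the mitochondrial ribosomal gene MRPL50, ZNF462 and ORM2, each at an adjusted p of 0.0701 by Fisher's exact test, and they were named after their values were seen.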

How the data were processed

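CUT&Tag libraries of A549 cells were analysed from the authors' deposited SEACR peak lists, 1 per library, 12 in all. The submitters' processing notes name SEACR 1.3, deepTools 3.5.2, Bowtie2 2.4.2, bedtools 2.30.0, fastp 0.23.2 and SAMtools 1.9 and the builds GRCh38 and hg38, without their settings or whether IgG served as a control. Column 4 of the deposited lists holds the total signal of a peak and column 5 its highest signal, coverage on a scale set per library. Read depth is unknown, so no counting interval could be made.

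Only chromosomes 1 to 22 and X entered the analysis, and 3.57% to 6.65% of a list lay elsewhere. Peaks of an antibody's 6 lists were merged, column 4 was summed per region and list, and log2 values were centred on the median of the regions held by all 6 lists on the autosomes other than 9. Coordinates are 1-based GRCh38 positions. Genes came from a RefSeq table of GRCh38.p14, and a gene was held if a peak lay within 1 kb of either annotated end, which can catch a neighbour's promoter. Without a genome, exons and introns were not used here.

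The distal part, the gene lists and the naming rule were chosen with earlier results of these data known. The rule named, per list, at most 4 genes of highest mean percentile, and per antibody the 5 highest-ranked regions and those with the 5 lowest and 3 highest differences. Conditions were compared without a test. Antibodies were compared by exact permutation within conditions and by Fisher's exact test, with Benjamini-Hochberg adjustment; the p-values reflect the spread of these libraries, which may be technical. The computations were tested on simulated data and used Python 3.11.15 with NumPy 2.4.6, pandas 2.3.3 and SciPy 1.17.1. Alternatives covered centring, signal column, borders, merging, list length, gene windows and left-out libraries.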

Additional observations from a re-analysis of the deposited data

How the results depend on the processing

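The distal median signal differences from WT kept their sign under every alternative run, and their size varied with the processing; the causes were not tested beyond what each alternative's construction shows. Values for signal follow as YTHDF1-KO and siARID1A with anti-ARID1A, then the same with anti-YTHDF1. Centred on chromosome 9 below 60 Mb they were -0.76 and -0.98, then -1.003 and -0.65. From the highest signal they were -0.39 and -0.46, then -0.53 and -0.55. Over each list's own peaks they were -0.085 and -0.091, then -0.084 and -0.079. Over regions held by at least 1 library of each condition, siARID1A came to -0.72 with anti-ARID1A, and the anti-YTHDF1 values to -0.43 and -0.49. With gaps of 1 kb joined, values were -0.71 and -0.77, then -0.95 for siARID1A. A start at 90 Mb gave -0.90 for siARID1A, and one at 100 Mb gave -0.66 and -0.93, all with anti-ARID1A. Lists cut to equal length gave -0.70 for YTHDF1-KO with anti-ARID1A. Of alternatives chosen after seeing the data, centring without chromosomes 2, 9 and 17 gave -0.66 for YTHDF1-KO and a start at 70 Mb gave -0.77 for siARID1A, with anti-ARID1A. Below 60 Mb, without 20 to 25 Mb, the anti-ARID1A differences were 0.053 and 0.097. With 10 Mb bins and anti-ARID1A the highest distal YTHDF1-KO bin was -0.56 and the lowest siARID1A bin -0.82; with anti-YTHDF1 they were 0.50, the same 3 regions as in 5 Mb bins, and -1.01. Without single replicates the signal differences ranged from -0.64 to -0.62 and from -0.83 to -0.70, then from -0.82 to -0.71 and from -0.88 to -0.73. The log2 ratio of peak numbers ranged from -0.59 to -0.55 and from -0.52 to -0.49, then from -0.98 to -0.82 and from -0.90 to -0.69.

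Here alone and only mean held by both lists of a condition and neither list of the other in that comparison. The third condition was not counted. With lists cut to equal length, 19 regions were held by YTHDF1-KO alone and 5 by siARID1A alone with anti-ARID1A. The log2 ratio of peak numbers for siARID1A was then -0.60. With only the upper part of each list by signal, YTHDF1-KO-only and WT-only regions numbered 11 and 207, and siARID1A-only and WT-only regions 0 and 446, with anti-ARID1A. With anti-YTHDF1 there were 13 YTHDF1-KO-only and 161 WT-only regions, and 25 held by siARID1A alone. The ratio was then -0.62 and -0.60, and -1.03 for YTHDF1-KO with anti-YTHDF1.

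Replicate numbers did not pair the libraries: deviations of same-numbered libraries correlated between -0.060 and 0.017 over regions. With the replicate number as a block the signal differences are the same means, from -0.65 and -0.61 and from -0.82 and -0.80 for the 2 numbers with anti-ARID1A, and from -0.90 and -0.66 and from -0.77 and -0.84 with anti-YTHDF1. The antibody difference in peak-number ratio, -0.30, had an adjusted p of 0.0938 under the block in the permutation test. Without single replicates it ranged from -0.34 to -0.27. The antibody difference in peak length, -0.0064, reversed to 0.0062 with a start at 100 Mb and ranged from -0.0082 to -0.0046 without single replicates. That in peak signal, 0.005, reversed to -0.030 in the upper part of the lists and ranged from -0.0039 to 0.013 without single replicates, reversing without 1 YTHDF1-KO anti-ARID1A library (-0.0039) and 1 siARID1A anti-YTHDF1 library (-0.00069). The count of distal genes past Fisher's exact test was 0, with unadjusted counts of 27, for 3 kb windows, 16 for lists of equal length and 36 for gene starts. The smallest adjusted p of Fisher's exact test over all genes was 0.0852, 0.138 and 0.0597 in these 3 settings, so no split of the lists passed. With 3 against 3 lists the smallest possible p of Fisher's exact test is 0.1, so those counts of 0 say nothing either.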
